A study of Mus musculus with 15 samples.

Results

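The genes described here are 10 members of the growth hormone (GH) axis of the liver, chosen by name from the 55984 gene symbols of the count table: the GH receptor Ghr, its transcription factor Stat5b, the feedback and target regulators Socs2, Cish and Bcl6, the insulin-like growth factor (IGF) genes Igf1, Igfals and Igfbp2, and the male-biased liver genes Hsd3b5 and Elovl3. All 10 were among the 17488 genes with enough counts to be tested. RNA-seq had been carried out on hepatocytes of 4 wild-type (WT) male C57BL/6JJcl mice aged 7 to 15 weeks, sorted by flow cytometry on the DNA dye Hoechst. Each mouse gave a diploid library (2n-whole), a library of all tetraploid cells (4n-whole) and one of tetraploid cells with a low Hoechst peak (4n-bottom), and mice 2, 3 and 4 also gave one of tetraploid cells with a high Hoechst peak (4n-top), 15 libraries in all. Before sorting, all cells were incubated with Hoechst, reserpine and DNase. No agent was given to some groups and not others, so the comparisons ask how ploidy and the number of nuclei go with expression. The 4n-bottom gate favours binucleated cells and the 4n-top gate mononucleated cells, but 4n-top was sorted once and holds both kinds. After sorting, 2n cells were spun down at a higher force than 4n cells, a handling difference that cannot be told apart from ploidy. The 4n-top sample of mouse 1 was not analysed here. The paper had left it out because its RNA was of poor quality.

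In the liver, GH binds its receptor, the receptor's partner kinase phosphorylates STAT5, and STAT5 dimers enter the nucleus and bind DNA. The pituitary of male mice releases GH in pulses, that of females more steadily, and this difference sets the sex bias of many hepatic genes. Most circulating IGF-I is made by hepatocytes under GH control, and the suppressors of cytokine signalling made in response to STAT5 damp the pathway.

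STAT5 binds a palindrome, TTCNNNGAA, which reads the same on both strands. It was searched for in the RefSeq promoter windows (build GRCm38.p6, 250 bases before the start to 50 after it), which held 8 of the 10 genes in 14 windows. There was no window for Socs2 or Elovl3. Cish, Bcl6 and Igfals held the motif, in 5 windows, against 8.3% of all 32851 windows and 9.55% of all genes. The matches are shown, 5′ to 3′ on the gene's strand with the motif in capitals, because STAT5 sites in these genes are the textbook link between the receptor and its targets.
Cish, chr9:107296654-107296683, plus strand: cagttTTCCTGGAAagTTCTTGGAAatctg
Bcl6, chr16:23988952-23988980, minus strand: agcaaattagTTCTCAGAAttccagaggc
Bcl6, chr16:23981433-23981461, minus strand: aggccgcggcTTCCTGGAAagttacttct
Bcl6, chr16:23981387-23981415, minus strand: ggcaggagtgTTCTGTGAAatccttagag
Bcl6, chr16:23981353-23981381, minus strand: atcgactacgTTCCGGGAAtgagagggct
Igfals, chr17:24877598-24877626, plus strand: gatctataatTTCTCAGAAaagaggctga
Igfals, chr17:24878163-24878191, plus strand: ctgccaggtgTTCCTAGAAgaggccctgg
The Cish window carried 2 matches that do not overlap, the first at the first transcribed base. Bcl6 carried 1 in the window of one start and 3 in that of another. The windows of Ghr, Stat5b, Igf1, Igfbp2 and Hsd3b5 did not hold these letters. The motif is described only as a sequence, since binding was not measured.

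Per kilobase of exon, the 10 genes spanned a wide range of levels. Averaged over the 15 libraries, Igfbp2 stood highest with 151 counts per kilobase after scaling to a common library size (CPM per kb), followed by Elovl3 with 79.1, Igf1 with 65.9 and Ghr with 45.3. Hsd3b5 had 26.9 CPM per kb, Igfals 22.9 and Stat5b 12.5. The transcriptional repressor Bcl6 had 4.06, Socs2 1.11 and Cish 0.980 CPM per kb. The lengths merge all annotated exons of a gene, 15258 bases for Socs2 and 6419 for Cish. A gene with long or many annotated exons therefore stands lower in this order. Ranges over single libraries overlapped between most neighbours in this order, for example 93.4 to 196 for Igfbp2 and 24.9 to 129 for Elovl3. They did not overlap between Igfals (17.1 to 28.1) and Stat5b (10.3 to 15.6), or between Stat5b and Bcl6 (0.537 to 7.94). All later levels are CPM without division by length, scaled by the trimmed mean of M-values (TMM).

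Ghr, on chromosome 15 (3347235 to 3613024, minus strand, GRCm39), was expressed almost evenly. In 2n-whole it had 449, 447, 415 and 426 CPM in mice 1 to 4, and in 4n-whole 501, 428, 477 and 443 CPM. In 4n-bottom it had 507, 452, 455 and 452 CPM, and in 4n-top 465, 467 and 469 CPM in mice 2, 3 and 4. The 2n-whole and 4n-whole groups overlapped, whereas every 4n-bottom library (higher in 4 of 4 mice) and every 4n-top library (higher in 3 of 3 mice) lay above every 2n-whole library. For 4n-whole over 2n-whole, the log2 fold change was 0.09, with a 95% interval of -0.07 to 0.25 (edgeR adjusted p = 0.581). In the other comparisons the log2 fold change was 0.10 (4n-bottom over 2n-whole), 0.14 (4n-top over 2n-whole) and 0.04 (4n-top over 4n-bottom), with 95% intervals that all held 0, and none passed the test.

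Stat5b (chromosome 11, 100671556 to 100741589, minus strand) had a mean of 82.0 ± 11.3 CPM in 2n-whole, 92.5 ± 15.5 in 4n-whole and 88.3 ± 16.9 in 4n-bottom (SD, n = 4 each), and 82.7 ± 14.8 in 4n-top (n = 3). The groups overlapped in every comparison. For 4n-whole over 2n-whole, the log2 fold change was 0.17 (95% interval -0.03 to 0.36, edgeR adjusted p = 0.332), and those of the other comparisons lay between -0.06 and 0.10 with adjusted p of 0.784 or more. Neither the receptor nor its transcription factor was therefore called in any of the 4 comparisons, where a call needed an adjusted p under 0.05 and an absolute log2 fold change over 0.5.

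**Figure D1:**
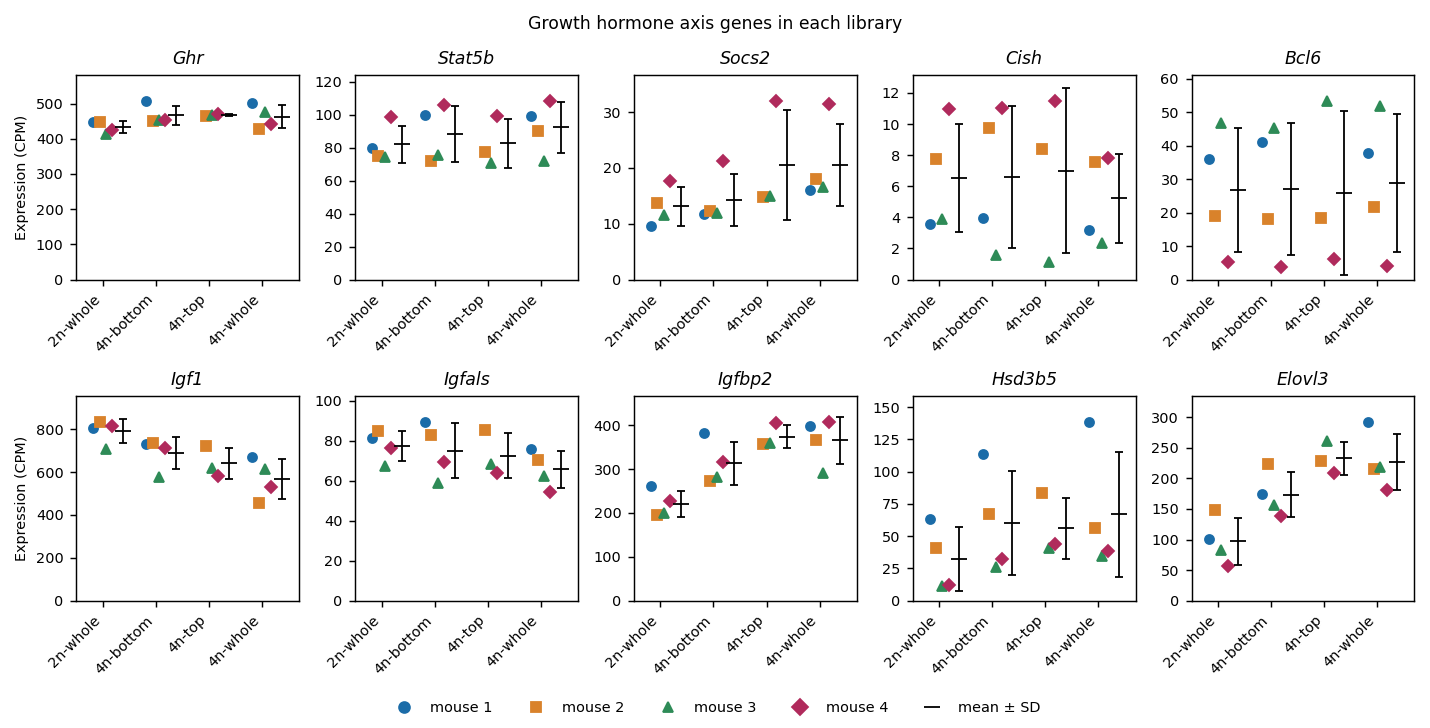
Expression of the 10 genes (y axis, CPM, from 0) in each library, by sorted population (x axis); symbols mark the mouse and black bars the mean ± SD. Igfbp2, Hsd3b5 and Elovl3 stood higher in the tetraploid libraries than in the 2n-whole library of the same mouse, and Igf1 stood lower. Bcl6 separated by mouse, and Cish was higher in mice 2 and 4 than in mice 1 and 3.

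Among the 10 genes, 4 were higher in 4n-whole than in 2n-whole and none was lower, against 3.47% of all genes tested called in either direction, 1.74% called higher and 1.73% called lower. The 4 were Elovl3, Hsd3b5, Igfbp2 and Socs2. The median log2 fold change of the 10 genes was 0.13, and that of all genes -0.01. In a sorted bulk sample, a change in the share of cells that express a gene and a change in the RNA of each cell cannot be told apart.

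Elovl3 (chromosome 19, 46119917 to 46124133, plus strand), an elongase of very long chain fatty acids that is male-biased in mouse liver, showed the largest of these differences. It had 100.5, 148, 83.1 and 56.3 CPM in the 2n-whole libraries of mice 1 to 4, and 292, 216, 219 and 181 CPM in 4n-whole. In 4n-bottom it had 175, 223, 157 and 138 CPM, and in 4n-top 228, 262 and 209 CPM in mice 2, 3 and 4. Every 4n-whole and every 4n-top library lay above every 2n-whole library, while the 4n-bottom group overlapped 2n-whole through mouse 4 of the one and mouse 2 of the other. The log2 fold change was 1.27 (SE 0.14, edgeR adjusted p = 9.87e-07) for 4n-whole over 2n-whole, a 2.42-fold difference seen in 4 of 4 mice. The gene overlaps Pitx3 on the other strand, and the strand setting of the counting is not given in the sources used here.

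Hsd3b5 (chromosome 3, 98525941 to 98553068, minus strand), a male-specific hydroxysteroid dehydrogenase of the liver, varied several-fold between mice but moved the same way within each. In 2n-whole it had 63.1, 41.0, 11.7 and 12.5 CPM in mice 1 to 4, and in 4n-whole 138, 56.6, 34.3 and 38.4 CPM. In 4n-bottom it had 114, 67.4, 26.3 and 32.4 CPM, and in 4n-top 83.5, 40.6 and 43.5 CPM in mice 2, 3 and 4. The groups overlapped because mice 1 and 2 were high everywhere, but within each mouse each tetraploid library exceeded the 2n-whole library. With the mouse as a block, the log2 fold change of 4n-whole over 2n-whole was 1.17 (SE 0.13, edgeR adjusted p = 1.6e-06), or 2.25-fold. Reads of the Hsd3b family can be shared between near-identical copies, so the split between Hsd3b5 and its neighbours is uncertain.

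Igfbp2 (chromosome 1, 72863606 to 72891634, plus strand), which encodes a circulating IGF-binding protein, had the narrowest spread of differences over mice among the 4 called genes. Its levels in mice 1 to 4 were 261, 194, 199 and 227 CPM in 2n-whole, and 399, 365, 290.5 and 406 CPM in 4n-whole. The 4n-bottom libraries had 382, 273, 282 and 316 CPM. Those of 4n-top had 357, 359.6 and 406 CPM in mice 2, 3 and 4. No tetraploid library overlapped the 2n-whole group. The log2 fold change of 4n-whole over 2n-whole was 0.73 (SE 0.09, edgeR adjusted p = 2.55e-06), or 1.66-fold, and the 4 mice lay between 0.55 and 0.91.

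Socs2 (chromosome 10, 95219523 to 95253929, minus strand), a STAT5 target whose product limits GH receptor signalling, had 9.51, 13.8, 11.5 and 17.6 CPM in 2n-whole and 16.1, 18.0, 16.6 and 31.5 CPM in 4n-whole. The groups overlapped through mouse 4, whose libraries were the highest in each population. The log2 fold change was 0.62 (SE 0.14, edgeR adjusted p = 0.00618), higher in 4 of 4 mice. Without mouse 4 it was 0.55 with an edgeR adjusted p of 0.166, so the call was lost. Leaving out that mouse also lowered the calls over all genes from 607 to 244. In 4n-bottom the gene had 11.7, 12.3, 11.9 and 21.1 CPM, and 4n-bottom over 2n-whole gave 0.10 (adjusted p = 0.855).

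**Figure D2:**
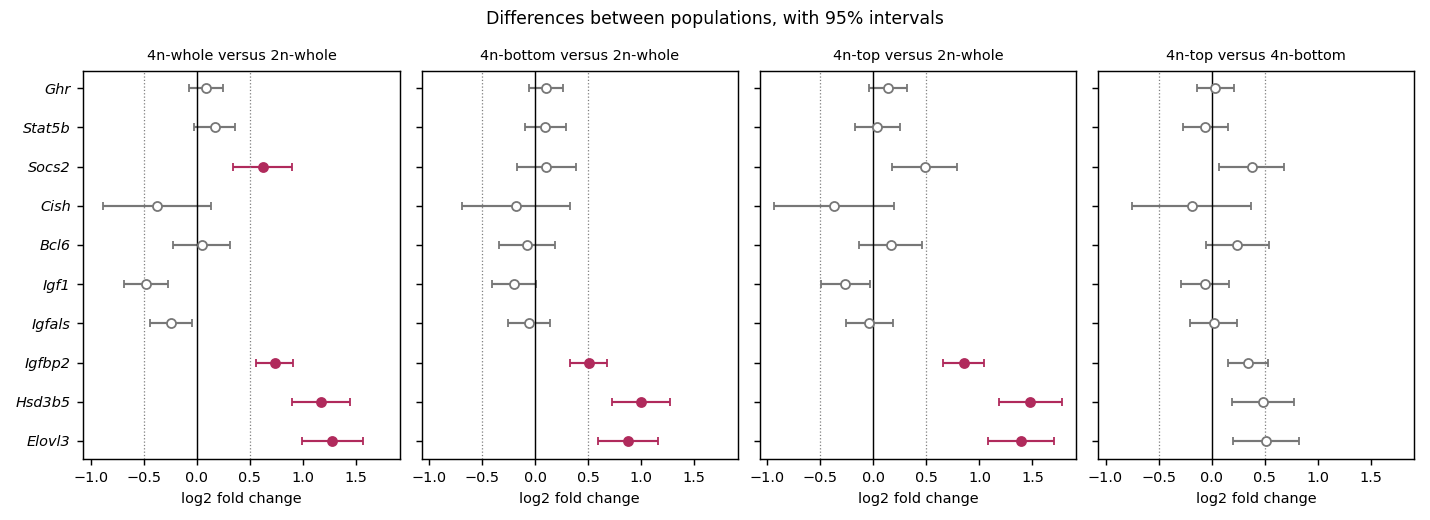
Log2 fold change (x axis) of each gene (y axis) in the 4 comparisons, with 95% intervals; filled red points passed the test and the fold limit, and dotted lines mark a log2 fold change of -0.5 and 0.5. Elovl3, Hsd3b5 and Igfbp2 passed against 2n-whole in all 3 tetraploid populations, Socs2 in 4n-whole, and no gene in 4n-top against 4n-bottom.

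Igf1, the main hormone made by the liver in response to GH (chromosome 10, 87693642 to 87772904, plus strand), went the other way. It had 807, 832, 709 and 817 CPM in 2n-whole and 672, 457, 614 and 529.7 CPM in 4n-whole, and the 2 groups did not overlap. The log2 fold change was -0.48 (SE 0.10, edgeR adjusted p = 0.00478), lower in 4 of 4 mice, which passed the test but not the fold limit. Of all genes, 5.47% passed the test with no limit on the fold. In 4n-bottom Igf1 had 732, 734, 578 and 711 CPM, and in 4n-top 721, 619 and 582 CPM. Both fractions stood between the other groups, with log2 fold changes over 2n-whole of -0.20 (adjusted p = 0.499) and -0.26 (adjusted p = 0.353). In mice 2 and 4, 4n-whole lay below both 4n-bottom and 4n-top, although its gate covers both. Without mouse 4, the adjusted p of 4n-whole over 2n-whole was 0.0524. Igf1os lies on the other strand of this locus.

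Igfals (chromosome 17, 25084971 to 25100984, plus strand) encodes the acid-labile subunit that holds IGF-I in the circulation. It had 77.5 ± 7.64 CPM in 2n-whole, 65.8 ± 9.35 in 4n-whole, 75.1 ± 13.7 in 4n-bottom (SD, n = 4 each) and 72.6 ± 11.2 in 4n-top (n = 3). It was lower in 4n-whole in 4 of 4 mice, with a log2 fold change of -0.24, but did not pass the test (edgeR adjusted p = 0.148). The 95% interval ran from -0.44 to -0.04. In the other comparisons its log2 fold change lay between -0.06 and 0.02.

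Cish and Bcl6 were not called between any populations and differed strongly between mice. Cish (chromosome 9, 107173225 to 107179983, plus strand), a feedback inhibitor that STAT5 induces, had 3.60, 7.73, 3.90 and 10.9 CPM in 2n-whole and 3.19, 7.58, 2.34 and 7.81 CPM in 4n-whole. In 4n-bottom it had 3.97, 9.74, 1.56 and 11.1 CPM, and in the 4n-top libraries of mice 2, 3 and 4 it had 8.38, 1.13 and 11.5 CPM. Mice 2 and 4 stood above mice 1 and 3 in every population. Between 4n-whole and 2n-whole the gene was lower in 4 of 4 mice, with a log2 fold change of -0.38 (95% interval -0.88 to 0.13, edgeR adjusted p = 0.431), an interval wide enough to hold a difference past the fold limit.

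Bcl6 (chromosome 16, 23783802 to 23807602, minus strand) encodes a repressor that opposes STAT5 at shared sites. It had 36.0, 18.9, 46.8 and 5.09 CPM in the 2n-whole libraries of mice 1 to 4, and 37.8, 21.7, 51.9 and 4.01 CPM in 4n-whole. In 4n-bottom it had 41.1, 18.0, 45.3 and 3.60 CPM, and in 4n-top 18.3, 53.2 and 6.10 CPM. The order of mice 3, 1, 2 and 4 held in all 3 populations that had all the mice, and 4n-top kept the order of the other 3 mice. Every library of mouse 3 was above, and every library of mouse 4 below, all other libraries. The mean of mouse 3 was 49.3 CPM and that of mouse 4 was 4.70 CPM, a 10.5-fold difference, while the log2 fold change of 4n-whole over 2n-whole was 0.04 (95% interval -0.22 to 0.31, edgeR adjusted p = 0.9).

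The mouse took 98.58% of the variance of log2 CPM of Bcl6 over the 15 libraries, 88.08% for Cish, 78.35% for Stat5b, 70.92% for Hsd3b5, 63.02% for Igfals and 61.97% for Socs2, against a median of 31.91% over all genes tested. The population took 83.3% for Igfbp2, 75.83% for Elovl3 and 57.79% for Igf1, against a median of 18.08%. These shares are descriptions from 4 mice and do not add to 100, because 4n-top lacks mouse 1. For Cish the highest mouse mean was 10.3 CPM (mouse 4) and the lowest 2.23 CPM (mouse 3), a 4.62-fold difference. For Hsd3b5 it was 105.0 CPM (mouse 1) against 28.2 CPM (mouse 3), or 3.72-fold. Socs2 differed 2.06-fold between mouse 4 and mouse 1. Ghr differed 1.08-fold between its highest and lowest mouse, and Elovl3 1.39-fold. Mouse 4 thus had the highest Socs2, Cish and Stat5b together with the lowest Bcl6, and mouse 3 the highest Bcl6 with the lowest Cish and Hsd3b5. The labels give no age, batch or time of day for single mice, and the differences between mice were not tested.

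**Figure D3:**
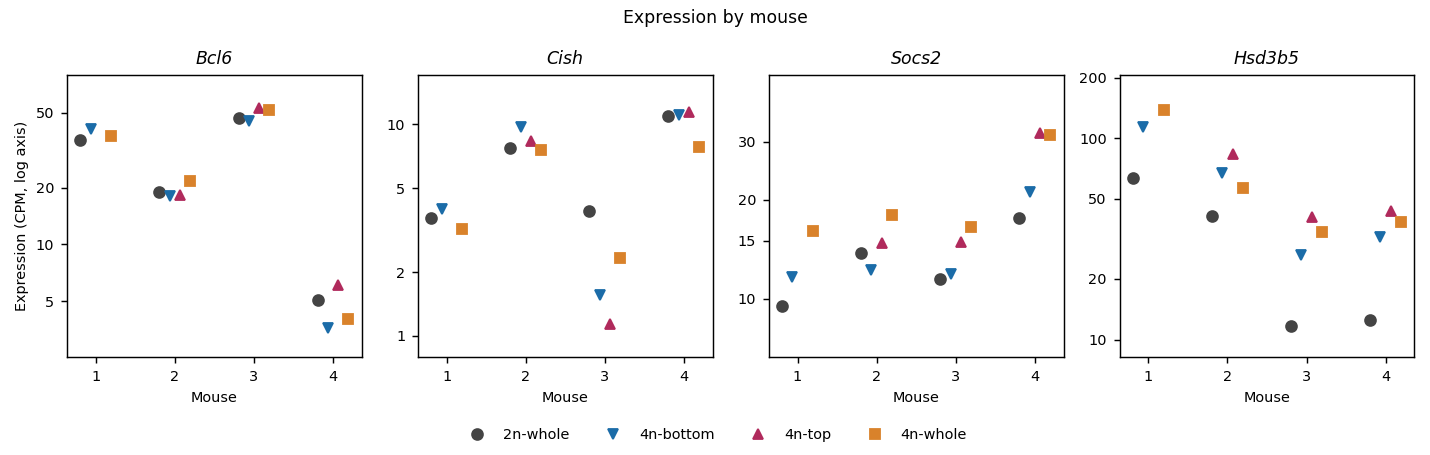
Expression (y axis, CPM, log axis) of Bcl6, Cish, Socs2 and Hsd3b5 by mouse (x axis), with a symbol for each sorted population. The 3 or 4 libraries of a mouse lay close together for Bcl6, whose mouse means ran from 4.70 to 49.3 CPM, and for Hsd3b5 the 2n-whole library was the lowest of every mouse.

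The 2 Hoechst fractions were each compared with the same 2n-whole libraries, so these comparisons are not independent of each other or of the one above. In 4n-bottom, 3 of the 10 genes were higher than in 2n-whole, against 0.463% of all genes called and 0.234% called higher. The log2 fold change was 1.00 for Hsd3b5 (SE 0.13, edgeR adjusted p = 0.000138), 0.88 for Elovl3 (SE 0.14, adjusted p = 0.000723) and 0.51 for Igfbp2 (SE 0.09, adjusted p = 0.00172), each higher in 4 of 4 mice. Igfbp2 lay at the fold limit: under the 11 alternative settings its log2 fold change ran from 0.48 to 0.51 and it was called in 3.

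In 4n-top the same 3 genes were higher than in 2n-whole, against 0.961% of all genes called and 0.44% called higher. Hsd3b5 had a log2 fold change of 1.48 (SE 0.15, edgeR adjusted p = 9.5e-07), Elovl3 of 1.39 (SE 0.15, adjusted p = 2.55e-06) and Igfbp2 of 0.85 (SE 0.09, adjusted p = 2.59e-06), all higher in 3 of 3 mice. Socs2 had 14.8, 14.9 and 31.9 CPM in 4n-top, a log2 fold change of 0.48 over 2n-whole that did not pass (adjusted p = 0.139).

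Between 4n-top and 4n-bottom, none of the 10 genes was called, and 0.0114% of all genes (2 genes) were. That number was 29 without mouse 2 and 0 without mouse 3 or mouse 4. Here 488 of the 17488 genes had an unadjusted p under 0.05, where 874 would be expected by chance. For Elovl3, Hsd3b5, Igfbp2 and Socs2 the 4n-top library was the higher in 3 of 3 mice. Their log2 fold changes were 0.51 for Elovl3 (95% interval 0.21 to 0.82), 0.48 for Hsd3b5 (0.19 to 0.77), 0.34 for Igfbp2 (0.15 to 0.54) and 0.38 for Socs2 (0.07 to 0.68). The edgeR adjusted p was 0.907 for Igfbp2 and 1 for the other 3. The group mean of Hsd3b5 was lower in 4n-top (55.9 CPM) than in 4n-bottom (60.0 CPM) because mouse 1, which had the most Hsd3b5, is in the latter only. Elovl3 was called in this comparison when mouse 2 was left out (log2 fold change 0.73, adjusted p = 0.000403). The other 6 genes had log2 fold changes between -0.19 (Cish) and 0.24 (Bcl6).

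Of the 18 genes of the receptor's signalling list (the receptors, the kinase Jak2, STATs, suppressors, phosphatases and the STAT5 partners), 17 were tested and Socs2 was the only one called in 4n-whole over 2n-whole, where 3.47% of all genes were called. The count was 3 without mouse 3 and 0 without mouse 4. The median log2 fold change of the list was 0.06. None was called in the other comparisons. The feedback inhibitor Socs3 (log2 fold change 0.37, edgeR adjusted p = 0.0349) and the adaptor Sh2b1 (0.46, adjusted p = 0.0278) passed the test below the fold limit in 4n-whole. Jak2, which phosphorylates STAT5, had -0.08 and Stat5a 0.46 (adjusted p = 0.0535).

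Of the 19 genes of the IGF system, 12 were tested and 2 were higher in 4n-whole than in 2n-whole, Igfbp2 and Igfbp1, with a list median of -0.01. Of all genes, 1.74% were called higher in this comparison. Without mouse 3, the number of called genes of this list was 4. Igfbp1, a binding protein that fasting raises and insulin lowers, had 104, 41.3, 183 and 97.9 CPM in 2n-whole and 159, 83.6, 252 and 205 CPM in 4n-whole. The groups overlapped, but the gene was higher in 4 of 4 mice (log2 fold change 0.80, SE 0.11, edgeR adjusted p = 2.25e-05). It was also called in 4n-top over 2n-whole (0.65, adjusted p = 0.00167), but not in 4n-bottom over 2n-whole (0.43, adjusted p = 0.079). Irs2, an adaptor of the insulin and IGF-I receptors, passed the test below the fold limit (0.45, adjusted p = 0.0255), and the insulin receptor Insr had -0.02.

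The male-biased genes of the liver moved in both directions. Of 18 genes, 17 were tested. In 4n-whole over 2n-whole 3 were called higher, 4 were called lower and 10 were not called. Of all genes, 3.47% were called, 1.74% higher and 1.73% lower. Cyp4a12a (log2 fold change -0.497, edgeR adjusted p = 0.00723) and Nudt7 (-0.34, adjusted p = 0.0335) passed the test below the fold limit. So did Cyp2d9, which was higher (0.30, adjusted p = 0.0228). The median log2 fold change of the list was -0.07, while its summed level, most of it from urinary protein genes, had a mean of 12050 CPM in 2n-whole and 9070 CPM in 4n-whole. Called higher with Elovl3 and Hsd3b5 was Susd4, a complement regulator. It had 1.18, 0.543, 1.98 and 0.747 CPM in 2n-whole and 7.54, 3.01, 8.74 and 7.27 CPM in 4n-whole. The groups did not overlap, and the log2 fold change was 2.59 (SE 0.27, edgeR adjusted p = 5.54e-07) at this low level.

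The 4 male-biased genes called lower were Ugt2b38, a glucuronosyltransferase, the pheromone-binding urinary proteins Mup20 and Mup3, and the fatty acid hydroxylase Cyp4a12b. Ugt2b38 had 91.2, 42.8, 35.9 and 34.0 CPM in 2n-whole and 34.1, 15.0, 14.39 and 7.33 CPM in 4n-whole. It was lower in each mouse, although the groups overlapped through mouse 1 by less than 1 CPM (log2 fold change -1.61, SE 0.13, edgeR adjusted p = 3.78e-08). Mup20 had -1.06 (adjusted p = 1.85e-07), Cyp4a12b -0.71 (adjusted p = 8.01e-05) and Mup3 -0.57 (adjusted p = 0.00164), each lower in 4 of 4 mice with no overlap between groups. Mup3 and Mup20 overlap on the same strand and belong, like Cyp4a12b and Ugt2b38, to families of near-identical genes, so their single values are uncertain.

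In 4n-bottom over 2n-whole, Elovl3, Hsd3b5 and Susd4 (1.70) were higher and Ugt2b38 (-0.94) was lower. In 4n-top over 2n-whole, the organic anion transporter Slco1a1 (0.57, edgeR adjusted p = 0.0425) joined Elovl3, Hsd3b5 and Susd4 (2.22), and Mup20 (-0.89) and Ugt2b38 (-1.15) were lower. No male-biased gene was called between 4n-top and 4n-bottom. Of 19 female-biased genes, 14 were tested, and 1 was called, Cyp2c69, in 4n-whole over 2n-whole (log2 fold change 1.57, SE 0.35, edgeR adjusted p = 0.00756), with a list median of -0.01 and 3.47% of all genes called. The count was 2 without mouse 3 and 0 without mouse 4. The level of Cyp2c69 was low, 0.0905 to 2.30 CPM in 2n-whole and 0.281 to 6.13 CPM in 4n-whole.

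**Figure D4:**
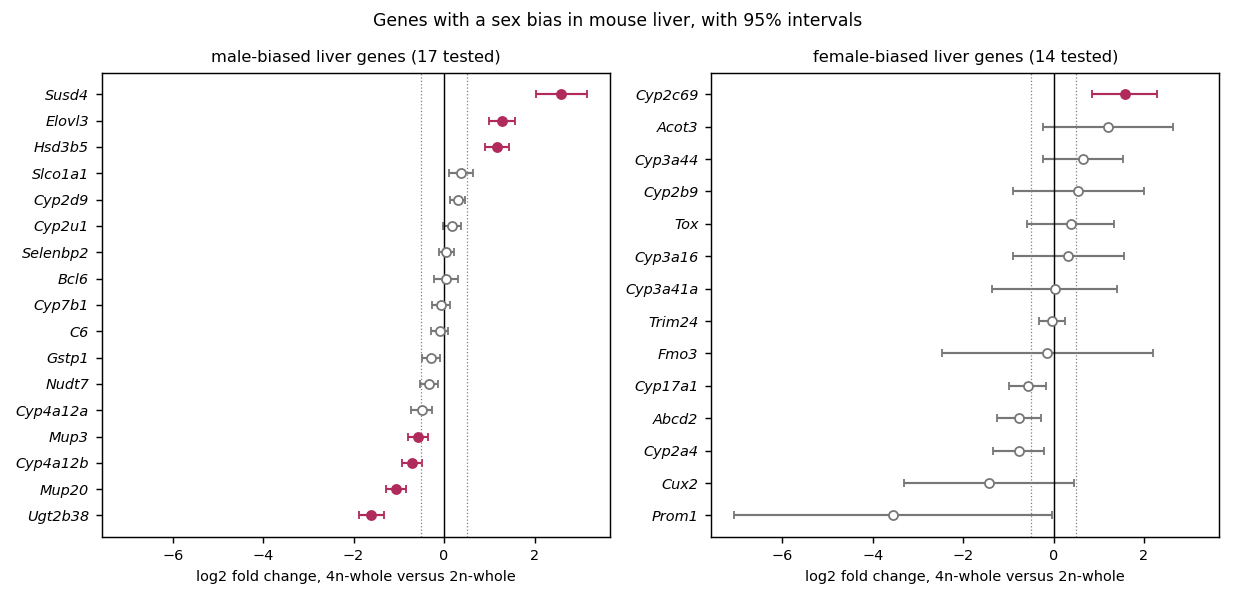
Log2 fold change of 4n-whole over 2n-whole (x axis) with 95% intervals for the 17 male-biased genes (left) and the 14 female-biased genes (right) that were tested; filled red points were called and dotted lines mark -0.5 and 0.5. Of the male-biased genes 3 were called higher and 4 lower, and of the female-biased genes only Cyp2c69 was called.

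Markers of position in the liver lobule also differed between the populations, and their part in the results was not tested. All 10 pericentral markers were called higher in 4n-whole than in 2n-whole (median log2 fold change 1.61). In 4n-bottom 7 and in 4n-top 8 were called higher, and the log2 fold changes of all 10 were above 0 in both (medians 1.02 and 1.29). Their summed level was 587 to 925 CPM in 2n-whole, 958 to 2310 in 4n-bottom, 992 to 3547 in 4n-top and 985 to 3293 in 4n-whole, and none was at 0. Of 10 periportal markers, Cyp2f2 was lower in 4n-whole (log2 fold change -0.74, edgeR adjusted p = 7.74e-05). The other 9 were not called, among them Ass1 (-0.24). The median log2 fold change of the 10 was -0.23, with 8 below 0 and 2 above. Arg1 (-0.27, adjusted p = 0.0471) and Sds (-0.33, adjusted p = 0.0435) passed the test below the fold limit. The summed level of the periportal markers was 79560 to 92050 CPM in 2n-whole and 66200 to 89440 in 4n-whole. Most of this sum was Alb, with a mean of 64650 CPM in 2n-whole and 55770 CPM in 4n-whole. Alb is also in the hepatocyte list.

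Mouse 2 had the lowest pericentral sum in each tetraploid population, 985 CPM in 4n-whole against 2931, 3070 and 3293 CPM in mice 1, 3 and 4. In the same mouse the log2 difference between 4n-whole and 2n-whole was 0.54 for Elovl3, against 1.40 to 1.69 in the others, and 0.46 for Hsd3b5, against 1.13 to 1.62. For Igfbp2 it was 0.91, the largest of the 4 mice, and for Igf1 it was -0.86, the most negative. The 2n-whole level of Elovl3 was highest in mouse 2 (148 CPM). In 4n-whole Elovl3 had 216 CPM in mouse 2, against 292, 219 and 181 CPM in mice 1, 3 and 4. The pericentral enzyme Cyp2e1 differed by 0.57 in mouse 2 and by 1.83 to 2.53 in the others, and Glul, which marks the cells next to the central vein, by 0.89 against 0.93 to 1.93. Between 4n-top and 4n-bottom, Glul was the only pericentral marker called and was lower (-0.90, edgeR adjusted p = 0.0499), whereas Cyp2e1 had 0.72 (adjusted p = 0.907). Igfbp2 is itself held to be a mid-lobular gene. Of the 5 mid-lobular markers, 4 were tested in 4n-whole over 2n-whole, of which Cyp8b1 and Igfbp2 were higher and Mup3 was lower.

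**Figure D5:**
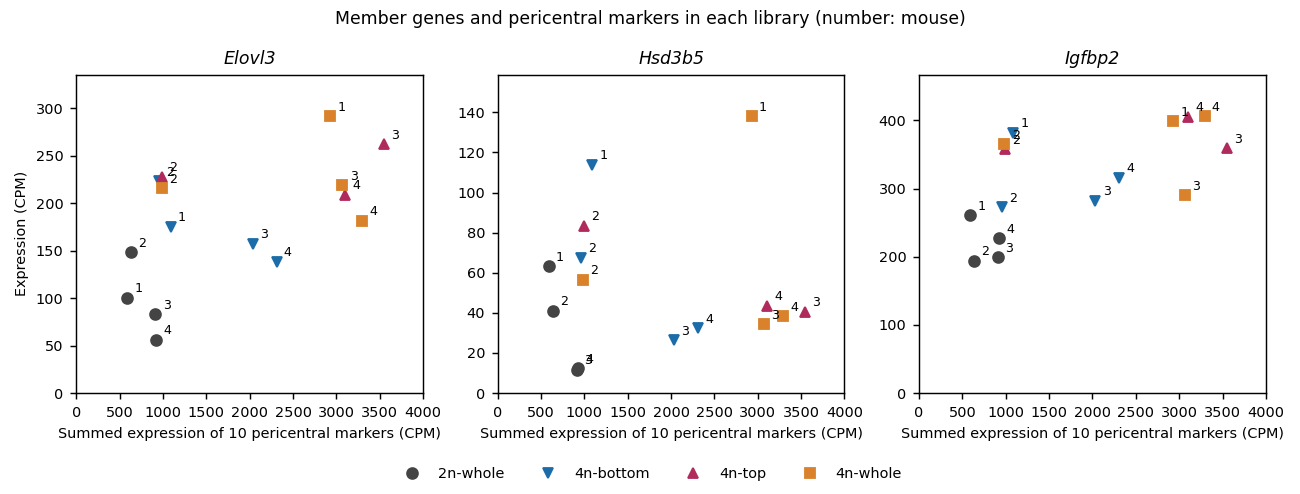
Expression of Elovl3, Hsd3b5 and Igfbp2 (y axes, CPM) against the summed expression of 10 pericentral markers (x axis, CPM) in each of the 15 libraries; symbols mark the population and numbers the mouse. In mouse 2 the pericentral sum was 634 CPM in 2n-whole and 958 to 992 CPM in the tetraploid libraries, and Elovl3 was 148 CPM in 2n-whole and 216 to 228 CPM in the tetraploid libraries.

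After the mouse effect was removed, the genes whose log2 CPM ran most closely with each called gene were looked up among 7371 genes over the 15 libraries. For Elovl3 these were the tight junction gene Cldn2 (r = 0.979), Cyp2c37 (r = 0.978) and Cyp2e1 (r = 0.975). For Hsd3b5 they were Rnase4 (0.971), Elovl3 itself (0.97) and the bile acid enzyme Cyp8b1 (0.968). For Igfbp2 they were the bile acid enzyme Cyp27a1 (0.973), Pdp2 (0.957) and Cyp2d9 (0.957), and for Socs2 the haem synthesis gene Cpox (0.93), Ikbkg (0.929) and Dock6 (0.924). These correlations share the libraries and the population differences and are descriptive.

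The libraries held 22049498 to 42096421 counts, and hepatocyte markers summed to 82640 to 114100 CPM in all of them, most of it Alb. Of the 8 hepatocyte markers, Serpina1c was called lower in 4n-whole than in 2n-whole (log2 fold change -0.83, edgeR adjusted p = 0.000541). Apob passed the test below the fold limit (-0.42, adjusted p = 0.0063). Markers of other liver cells were low. The endothelial list summed to 3.71 to 23.7 CPM, the stellate list to 1.77 to 5.46 and the Kupffer list to 0.0623 to 7.64. The mean Kupffer sum was 4.50 CPM in 2n-whole, 1.30 in 4n-whole, 1.66 in 4n-bottom and 0.778 in 4n-top. All 6 Kupffer markers had a log2 fold change below 0 in 4n-whole over 2n-whole, with 0 called. The biliary list reached 34.6 to 47.4 CPM in 2n-whole against at most 31.2 in 4n-whole, and its genes Spp1 and Sox9 were called lower in 4n-whole. Leukocyte and blood markers summed to at most 2.24 CPM, and 2 of the 6 were at 0 in all 2n-whole libraries. Immediate early genes summed to 1538 to 2249 CPM in 2n-whole and 1744 to 3249 CPM in 4n-whole, and 7 of the 8 had a log2 fold change above 0. None was called, but Jun (0.41, edgeR adjusted p = 0.0148), Junb (0.37, adjusted p = 0.0307) and Ier2 (0.33, adjusted p = 0.0358) passed the test below the fold limit. Mitochondrial transcripts took 20.5% to 26.2% of the counts in 2n-whole and 8.84% to 18.5% in 4n-whole, lower in each of the 4 mice, 12.2% to 23.6% in 4n-bottom and 11.9% to 13.02% in 4n-top. The part of these differences in the results above was not tested.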

How the data were processed

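RNA-seq libraries were made from total RNA of sorted hepatocytes with a stranded SMART-Seq kit. The authors aligned reads to GRCm39 with STAR 2.7.11a and deposited whole-number counts per gene symbol from featureCounts. Neither the strand setting nor the annotation is given in the sources used here. Of the genes with 1 to 10 counts in a library, 74.2% to 81.4% have an even number, so mates of a pair appear to have been counted singly, and counting error is larger than the totals of 22049498 to 42096421 imply.

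Libraries were grouped by the labels, and the mouse by the subject number. Genes were filtered with filterByExpr (minimum count 10, minimum total 15), normalised by TMM and tested in edgeR 4.0.16 (R 4.3.3) with the quasi-likelihood test over all 15 libraries, with population and mouse as terms and Benjamini-Hochberg adjustment over 17488 genes. A call needed an adjusted p under 0.05 and an absolute log2 fold change over 0.5, the limits of the study. The mouse paired the libraries: residuals of the 21 pairs from the same mouse correlated with a mean r of 0.376 (0.207 to 0.532). With the mouse as a term, each p-value sets a difference between populations against the variation left within mice. That variation was estimated over all 15 libraries and drawn towards that of other genes. For 4n-top only 3 mice gave a library. Differences in level between mice are taken out by the mouse term.

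CPM are TMM-scaled; like patterns used log2 CPM with a prior count of 2. Levels per kilobase used exon lengths of GENCODE M39, in which 295 of the 55984 symbols match several loci and 119 none; all 10 genes match 1. Named were the 10 genes, genes of the 4 lists called in any comparison (at most 6 per list and comparison), Cyp2f2, Ass1, Glul and Cyp2e1, and the 3 most alike genes of each called gene with a mean log2 CPM of 3 or more; other genes named from these lists, among them Socs3, Sh2b1, Jak2, Stat5a, Irs2, Insr, Jun, Junb, Ier2, Spp1, Sox9 and Cyp8b1, were chosen after their values were seen. Alb, Serpina1c, Apob, Arg1, Sds, Cyp4a12a, Nudt7 and Cyp2d9 were also named after their values were seen. The genes, lists and tests were chosen with earlier results of these data known. Alternatives used DESeq2 1.42.0, ComBat-seq of sva 3.50.0 before DESeq2 (the study's order), other normalisation, filters and samples. The edgeR script was tested on simulated data.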

Additional observations from a re-analysis of the deposited data

Results flagged for a closer look

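In each group of 4 libraries, a library was singled out when its gap to the nearest other library took up more than the critical share of the group's range in Dixon's test. Of 54 groups examined (18 genes in 3 populations; 4n-top, with 3 libraries, was not examined), 6 were singled out, where chance gives about 2.7. Socs2 was highest in mouse 4 in 4n-whole (31.48 CPM, with the next library at 18.0 CPM) and in 4n-bottom (21.15 CPM, next 12.26 CPM). Ghr was highest in mouse 1 in 4n-bottom (506.6 CPM, next 454.8 CPM). Igf1 was lowest in mouse 3 in 4n-bottom (577.8 CPM, next 710.5 CPM). Slco1a1 was highest in mouse 1 in 4n-bottom (348.3 CPM, next 265.6 CPM), and Ugt2b38 was highest in mouse 1 in 2n-whole (91.2 CPM, next 42.82 CPM).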

How the results depend on the processing

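Without the replicate block, the number of the 10 genes called fell from 4 to 2 in 4n-whole over 2n-whole (Elovl3 and Igfbp2), from 3 to 0 in 4n-bottom over 2n-whole and from 3 to 0 in 4n-top over 2n-whole, and all genes called in 4n-whole over 2n-whole fell from 607 to 40; in 4n-bottom over 2n-whole they fell from 81 to 0 and in 4n-top over 2n-whole from 168 to 2. In that fit these log2 fold changes turned: in 4n-bottom over 2n-whole Bcl6 to 0.015 and Cish to 0.012; in 4n-top over 2n-whole Bcl6 to -0.050 and Cish to 0.10; and in 4n-top over 4n-bottom Bcl6 to -0.065, Cish to 0.088, Hsd3b5 to -0.10 and Igfals to -0.047.

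In 4n-top over 4n-bottom, 1 of the 10 genes (Elovl3) was called instead of 0 with no filter on low counts, and 1 with DESeq2 and the mouse as block. Leaving out each mouse gave 0 to 1 there (Elovl3 without mouse 2), 3 to 5 in 4n-whole over 2n-whole (Socs2 lost without mouse 4, Igf1 added without mouse 1 and without mouse 3), 2 to 3 in 4n-bottom over 2n-whole, and 3 in 4n-top over 2n-whole. Leaving out mice also turned log2 fold changes of genes that were not called: Bcl6 ran from -0.19 to 0.017 in 4n-bottom over 2n-whole and from -0.016 to 0.13 in 4n-whole over 2n-whole, Cish from -0.38 to 0.16 in 4n-bottom over 2n-whole and from -0.68 to 0.095 in 4n-top over 2n-whole, Igf1 from -0.11 to 0.037 in 4n-top over 4n-bottom, Igfals from -0.081 to 0.042 in 4n-top over 2n-whole and from -0.054 to 0.080 in 4n-top over 4n-bottom, and Stat5b from -0.0092 to 0.074 in 4n-top over 2n-whole. ComBat-seq with DESeq2 turned Bcl6 in 4n-whole over 2n-whole to -0.0074 and Stat5b in 4n-top over 2n-whole to -0.0033, and a fit of only the libraries compared turned the latter to -0.017. The cause was not tested.

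Over all genes, 4n-whole over 2n-whole gave 305 calls with only the libraries compared, 244 to 1025 without single mice, 957 with no limit on the fold, 1158 with ComBat-seq and DESeq2, and 4606 with DESeq2 and the mouse as block, of which 889 were among the 17488 genes that passed the count filter. DESeq2 with the mouse as block gave 3003 calls in 4n-top over 4n-bottom (103 among those genes), 3867 in 4n-bottom over 2n-whole (318) and 4433 in 4n-top over 2n-whole (511). In 4n-top over 4n-bottom the count of 2 became 25 with no filter on low counts, 15 with only the libraries compared, 18 with ComBat-seq and DESeq2, and 0 to 29 without single mice. Leaving out mitochondrial transcripts, an alternative chosen after seeing the data, gave 595 calls in 4n-whole over 2n-whole and the same 4 of the 10 genes. Of the 40 log2 fold changes under 11 alternatives each, 399 values kept direction and call, 16 lost a call, 5 gained one and 20 turned. Cish, with 29 counts in its lowest library, had the widest intervals.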
